A study of Mus musculus with 6 samples.

Results

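The 46 genes described here encode the proximal signalling machinery of the T-cell antigen receptor (TCR), from the CD3 chains at the membrane to the kinases, adaptors, Ras and calcium branches inside the cell. The member list held 49 symbols for 48 genes (*Rlk* is an older symbol of *Txk*). A gene was taken where the array annotation gave its symbol alone, and a gene with several rows was represented by the row with the highest mean. *Lck* and *Itpr1* were not analysed here, which left 46 of 19752 genes in the table. Gene expression was measured on 6 Affymetrix mouse arrays in sorted mature (Vα2hi CD24lo) CD4 SP thymocytes, 3 per genotype. The dKO cells carried floxed *Kdm6a* (*Utx*) and *Kdm6b* (*Jmjd3*) alleles deleted by *Cd4*-Cre, which acts from the DP stage onward, and Cre-negative animals gave the wild-type cells. All 6 samples carried the OT-II TCR transgene, so that every sample had the same transgenic receptor. The labels call the samples biological replicates without naming animals or ages, so p-values reflect no more than the variation among the 6 samples given, which may be technical.

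When peptide-MHC binds the TCR, Lck phosphorylates the tails of the CD3 chains, Zap70 docks there, and Zap70 phosphorylates the adaptors Lat and SLP-76. On this scaffold phospholipase Cγ1 makes 2 messengers: inositol trisphosphate opens the calcium, calcineurin and NFAT branch, and diacylglycerol opens the RasGRP1 and protein kinase C branches. The same steps decide positive and negative selection in the thymus. Jmjd3 and Utx are the demethylases that remove the repressive H3K27Me3 mark, and the comparison asks which signalling genes differ when both are lost.

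Values are the deposited log2 signals, and a difference is dKO minus wild-type on the log2 scale with its standard error (SE). A gene is said to have risen or fallen when its Benjamini-Hochberg adjusted p over all 19752 genes in limma was under 0.05. In these bulk samples, fewer cells of a type and less RNA per cell cannot be told apart. The row for *Kdm6a* differed by -0.67 (adjusted p = 2.6e-05) and that for *Kdm6b* by -0.092 (adjusted p = 0.32); the floxed exons are a part of each gene and a row also reads exons outside them. Array medians lay between 6.27 and 6.32, and arrays of one genotype correlated at 0.998 to 0.999, those of different genotypes at 0.991 to 0.993. All 8 CD4 SP T-cell markers measured lay above the median gene in wild-type. Of these *Cd5*, *Zbtb7b* and *Gata3* fell, *Cd28* and *Il7r* rose, and *Cd4*, *Cd3e* and *Lef1* did not pass the test. The fall of *Zbtb7b* was small (-0.27, adjusted p = 0.022 in limma). The study reported no reduction of this gene in dKO cells, and its text gives no criterion for that statement.

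Of the 46 members, 20 fell, 4 rose and 22 did not pass the test. The 24 called members are 52.2% of the list, beside 23.1% of all genes called. The list was chosen with earlier results of these data known, so its shares here and below are a description and no independent support. Lower calls were 43.5% of members beside 10.0% of all genes, and higher calls 8.70% beside 13.1%. With cyclic loess normalization the calls over all genes split into 2376 lower and 2153 higher, against 1976 and 2587 here, and those over members into 23 and 3. Members were mostly bright genes: 45 of 46 lay above the median wild-type value. Among the brightest 50% of genes, refitted alone, 45.8% were called, 19.1% lower and 26.7% higher, while 27 of the 45 members in that set were called, 22 lower and 5 higher. The median difference was -0.12 over members and 0.0057 over all genes. Most member differences were small: 16 of the 20 that fell did so by less than 1.5-fold. A called change of 1.5-fold or more was found for 5 members, *Trat1*, *Ppp3cc*, *Txk*, *Tec* and *Ppp3ca*, against 2.99% of all genes, and a fall of at least 2-fold for *Trat1* and *Ppp3cc*, against 0.582% of all genes. The dKO arrays did not overlap the wild-type arrays for 33 members (27 with every dKO array below, 6 with every dKO array above), where 37.7% of all genes did not overlap.

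**Figure D1:**
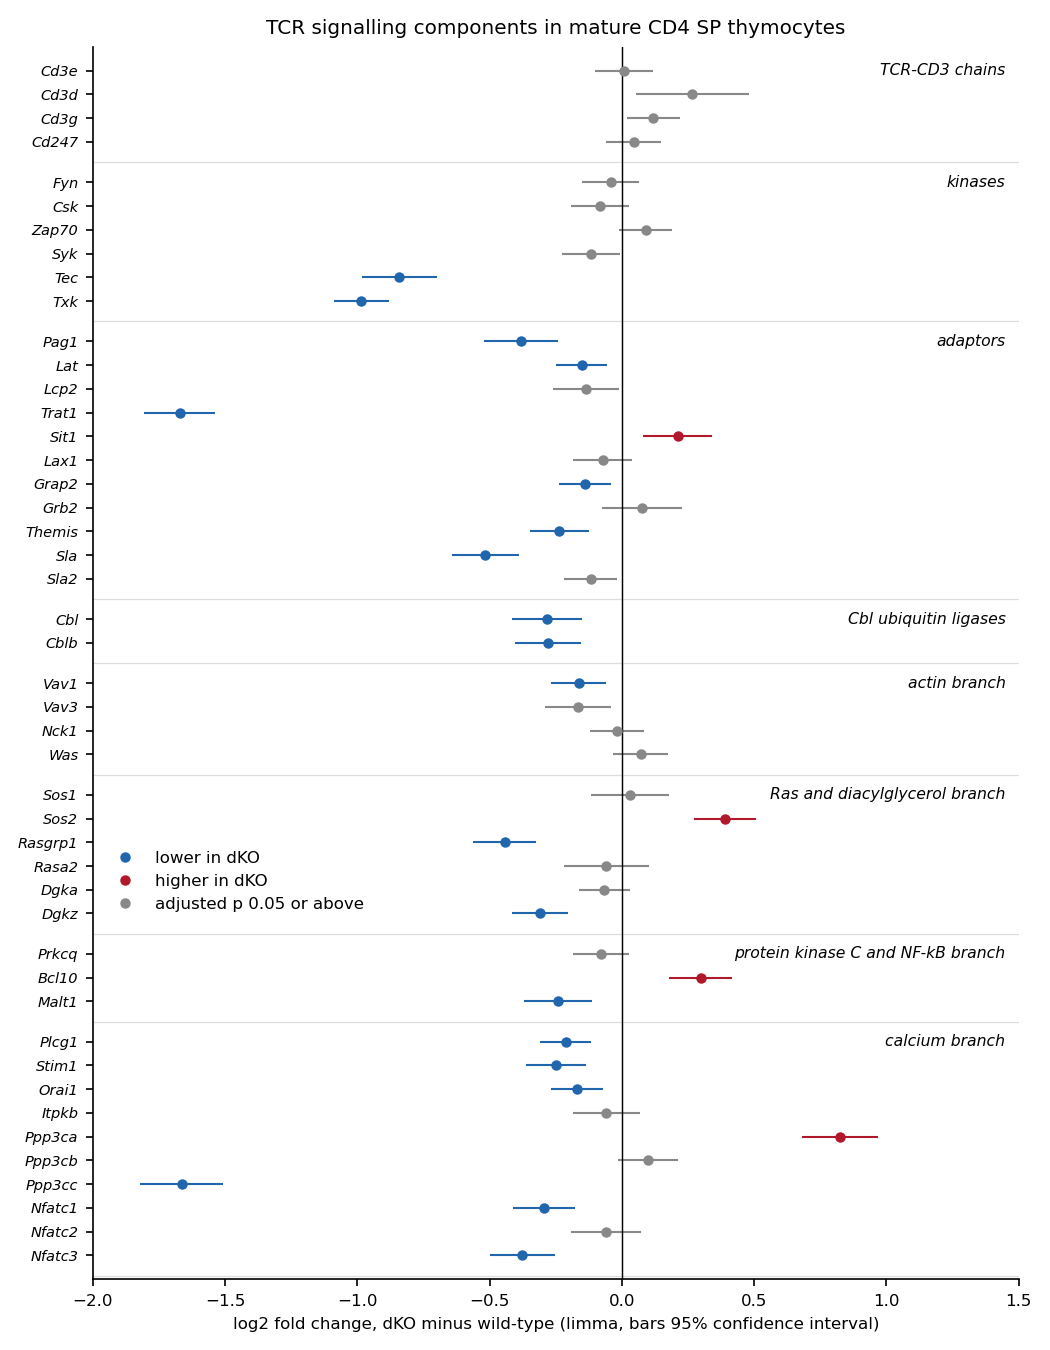
Log2 fold change (dKO minus wild-type, x axis) of the 46 measured TCR signalling members, grouped by role, with the limma estimate as a point and its 95% confidence interval as a bar (3 arrays per genotype). Blue members fell, red members rose and grey members did not pass the test; *Trat1* at -1.67 and *Ppp3cc* at -1.66 lie farthest to the left and *Ppp3ca* at 0.82 farthest to the right.

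Promoter sequences are shown for the 3 members with the largest decreases for which the RefSeq table held one, *Trat1*, *Txk* and *Tec*. They run from 250 bases before to 50 bases after the annotated start on GRCm38.p6, read 5′ to 3′ on the strand of the gene (the minus strand for all 3), and capitals mark each CG dinucleotide. CG-rich promoters are, as background, the usual sites of Polycomb binding and H3K27Me3. The promoter of *Trat1*, which encodes the transmembrane adaptor TRIM, lies at chr16:48772013-48772312. That of *Txk*, the Tec-family kinase Rlk, lies at chr5:72752728-72753027 and is the first listed of its 2 starts. That of the kinase *Tec*, the next gene on the chromosome, lies at chr5:72868399-72868698.
Trat1: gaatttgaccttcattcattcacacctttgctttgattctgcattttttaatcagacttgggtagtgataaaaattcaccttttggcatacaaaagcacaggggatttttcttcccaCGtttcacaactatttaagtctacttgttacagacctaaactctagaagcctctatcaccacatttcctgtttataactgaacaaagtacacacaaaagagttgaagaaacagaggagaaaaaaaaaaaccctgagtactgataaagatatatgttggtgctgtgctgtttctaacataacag
Txk: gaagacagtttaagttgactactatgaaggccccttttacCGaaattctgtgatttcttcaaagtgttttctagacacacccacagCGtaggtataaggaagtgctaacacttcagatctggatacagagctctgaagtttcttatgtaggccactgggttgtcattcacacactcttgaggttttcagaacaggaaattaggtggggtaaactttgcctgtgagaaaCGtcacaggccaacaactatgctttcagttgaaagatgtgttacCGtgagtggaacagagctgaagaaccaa
Tec: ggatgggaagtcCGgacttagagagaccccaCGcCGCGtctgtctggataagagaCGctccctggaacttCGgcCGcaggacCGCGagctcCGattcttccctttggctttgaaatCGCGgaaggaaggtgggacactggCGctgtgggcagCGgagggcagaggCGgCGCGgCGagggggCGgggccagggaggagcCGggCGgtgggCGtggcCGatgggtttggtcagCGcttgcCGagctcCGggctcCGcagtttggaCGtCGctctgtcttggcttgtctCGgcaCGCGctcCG
The *Trat1* window held 1 CG dinucleotide, that of *Txk* held 4 and that of *Tec* held 33. Over the first promoter listed for each of 27025 genes the median was 7, and 5.78%, 31.9% and 91.7% of promoters had fewer than *Trat1*, *Txk* and *Tec*, respectively. A promoter was listed for 40 of the 46 members. Their CG counts ranged from 1 to 43 (median 17) in 15 members that fell, from 8 to 54 (median 26) in 3 that rose and from 0 to 37 (median 8) in 22 that did not pass the test. Both strands were searched for 4 short motifs. The KLF-type letters CACACCC were found in 4 of the 15 promoters of members that fell (*Plcg1*, *Txk*, *Orai1* and *Themis*), in 3 of the 22 without a call and in 7.85% of all promoters. The forkhead-type letters GTAAACA were in 2 of the 15 (*Nfatc3* and *Grap2*), in 1 of the 22 and in 3.55% of all. The ETS-type letters GGAAGT were in 5 of the 15, *Txk* and *Tec* among them, in 7 of the 22 and in 24.1% of all, and the Runx-type letters TGTGGT in 2 of the 15, *Trat1* and *Lat*, in 4 of the 22 and in 16.9% of all. The first motif and the reverse of the last can share letters, and a match says only that these letters are in the window.

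The antigen receptor's own signalling chains did not pass the test. *Cd3e*, *Cd3d*, *Cd3g* and *Cd247* (the ζ chain) carry the ITAM sequences that recruit Zap70. *Cd3e* read 12.99, 13.11 and 13.09 in wild-type and 13.09, 13.06 and 13.07 in dKO, a difference of 0.0079 with a 95% confidence interval from -0.10 to 0.12. *Cd247* read 10.89, 10.91 and 10.94 in wild-type and 10.97, 10.99 and 10.91 in dKO (0.045, interval -0.059 to 0.15). For both genes the ranges overlapped and the sign turned under cyclic loess normalization, and the intervals bound the differences that these arrays leave possible. *Cd3g* read 12.66, 12.65 and 12.71 against 12.79, 12.78 and 12.81, with every dKO array above (0.12, adjusted p = 0.090). *Cd3d* read 11.30, 11.21 and 10.91 against 11.28, 11.47 and 11.45 (0.27, adjusted p = 0.074), and wild-type replicate 3 was the lowest of the 6. In limma 2 of the 4 chains, *Cd3d* and *Cd3g*, had an unadjusted p under 0.05, and 1 chain, *Cd3g*, was called by an unmoderated Student t-test after adjustment. Without wild-type replicate 1, *Cd3d* passed the test in limma (adjusted p = 0.031).

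Of 6 kinases measured 2 fell, both of the Tec family, where 10.0% of all genes fell. *Lck*, whose kinase acts first, was not analysed here, and the measured kinase genes outside the Tec family gave no call. *Fyn*, the Src-family partner of Lck, differed by -0.043 and *Csk*, which restrains both, by -0.083. The gene of the Zap70 relative, *Syk*, differed by -0.12 (adjusted p = 0.13). *Syk* read between 5.61 and 5.82 on all 6 arrays, below every array's median, and no measure of background was used here. *Zap70* read 10.64, 10.61 and 10.61 in wild-type and 10.71, 10.74 and 10.67 in dKO. All 3 dKO arrays were above, by a mean of 0.090 (adjusted p = 0.20). *Txk* encodes a Tec kinase that T-cells express. It read 10.68, 10.76 and 10.73 in wild-type and 9.73, 9.72 and 9.77 in dKO, 1.98-fold lower (log2 difference -0.98, SE 0.046, adjusted p = 5.7e-07). *Tec* read 6.85, 6.66 and 6.81 in wild-type and 5.85, 5.94 and 6.005 in dKO, 1.79-fold lower (-0.84, SE 0.064, adjusted p = 1.4e-05). In both genes the distance between genotypes exceeded the spread within each several times over. *Tec* was near the array median in wild-type and below it in dKO, where a fold is read close to the dimmer end of the arrays. Tec kinases phosphorylate phospholipase Cγ1.

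**Figure D2:**
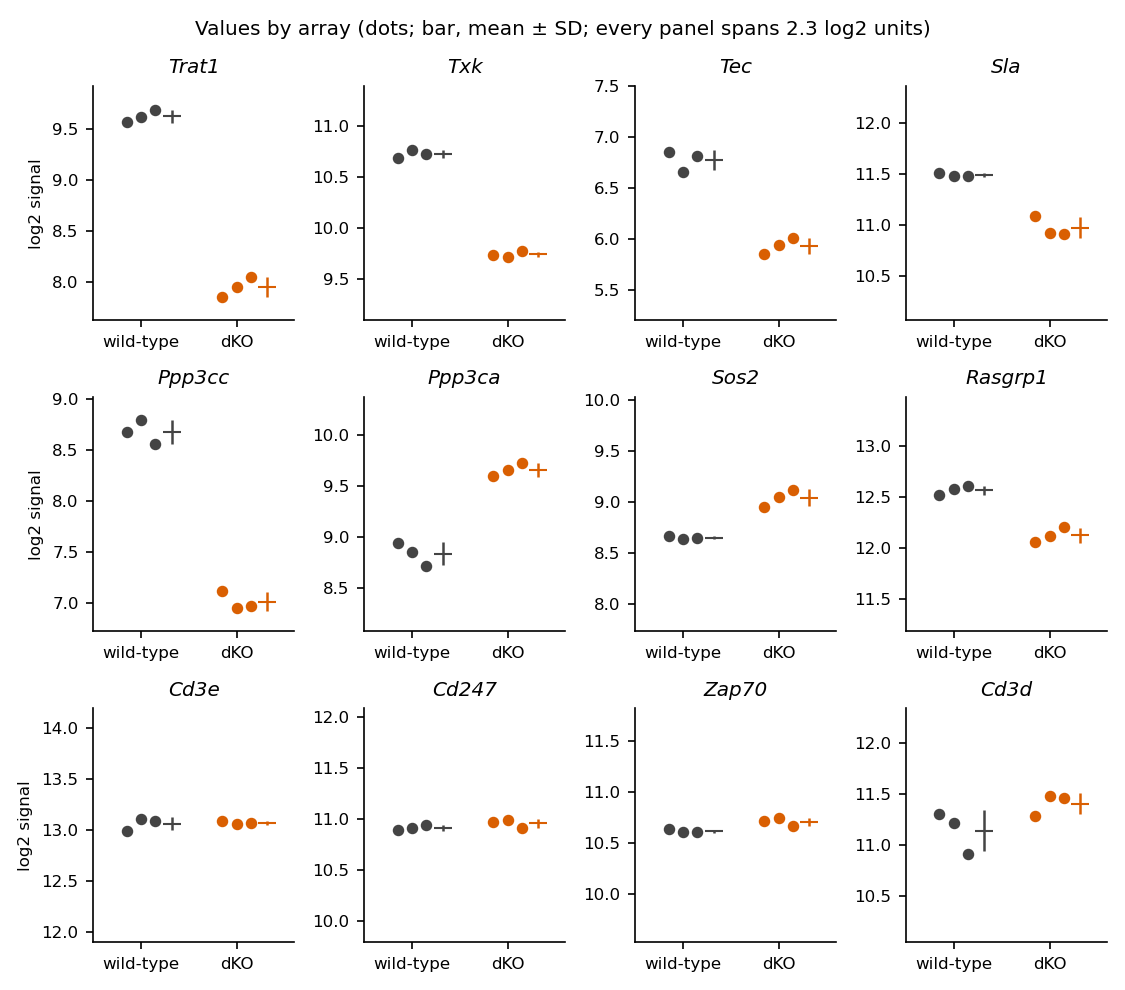
Log2 signal (y axis, each panel spanning 2.3 log2 units) on each array for 12 members, with wild-type in grey and dKO in orange, 3 arrays each, and the mean ± SD as a bar beside the dots. *Trat1*, *Txk*, *Tec*, *Sla*, *Ppp3cc* and *Rasgrp1* sit lower and *Ppp3ca* and *Sos2* higher in every dKO array, while *Cd3e*, *Cd247* and *Cd3d* overlap.

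Among the 11 adaptors 6 fell and 1 rose, where 10.0% of all genes fell and 13.1% rose. The largest change of any member was in *Trat1*. TRIM associates with the TCR-ζ complex and binds phosphatidylinositol 3-kinase when phosphorylated. *Trat1* read 9.57, 9.61 and 9.69 in wild-type and 7.86, 7.95 and 8.05 in dKO. It was 3.19-fold lower (-1.67, SE 0.060, adjusted p = 1.0e-07), the 25th largest decrease of all genes tested. The other transmembrane adaptors did not follow one direction. *Pag1*, which tethers Csk to the membrane, read 9.74, 9.71 and 9.63 in wild-type and 9.18, 9.39 and 9.36 in dKO (-0.38, adjusted p = 0.0017). *Sit1*, which binds the phosphatase SHP-2 and dampens signalling, read 10.85, 10.89 and 10.89 in wild-type and 11.16, 11.13 and 10.97 in dKO (0.21, adjusted p = 0.027). All its dKO values were above, with dKO replicate 3 the nearest to wild-type, and the call was lost when any array other than dKO replicate 3 was left out, with cyclic loess normalization (adjusted p = 0.073) and with the Student t-test (adjusted p = 0.12). *Lax1*, an inhibitory relative of Lat, gave -0.073 (adjusted p = 0.35).

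The Lat scaffold itself shifted little. *Lat* read 12.04, 12.06 and 12.03 in wild-type and 11.89, 11.88 and 11.90 in dKO (-0.15, adjusted p = 0.029). *Grap2*, which encodes Gads, the bridge from Lat to SLP-76, read 11.88, 11.91 and 11.87 in wild-type and 11.75, 11.74 and 11.75 in dKO (-0.14, adjusted p = 0.042). Both pairs of ranges were narrow and apart, at a difference near 1.1-fold. Leaving out any 1 of the 6 arrays ended both calls. *Lcp2*, which encodes SLP-76, gave -0.14 (adjusted p = 0.11) and *Grb2*, which brings Sos to Lat, gave 0.075 (adjusted p = 0.51).

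*Themis*, a T-lineage protein needed for positive selection, read 11.02, 10.94 and 11.07 in wild-type and 10.76, 10.77 and 10.79 in dKO (-0.24, adjusted p = 0.0065). The Src-like adaptors lower the surface TCR by bringing Cbl to the ζ chain. *Sla* (SLAP) read 11.51, 11.48 and 11.48 in wild-type and 11.09, 10.92 and 10.92 in dKO, 1.43-fold lower (-0.52, SE 0.057, adjusted p = 0.00014), with dKO replicate 1 the highest of the 3. *Sla2* gave -0.12 (adjusted p = 0.090).

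Both Cbl ubiquitin ligases, which mark activated receptors and kinases for degradation, fell by a similar amount. *Cbl* read 11.26, 11.23 and 11.24 in wild-type and 10.87, 10.93 and 11.08 in dKO (-0.28, adjusted p = 0.0066). *Cblb* read 10.59, 10.65 and 10.65 in wild-type and 10.26, 10.35 and 10.44 in dKO (-0.28, adjusted p = 0.0050). In both genes dKO replicate 1 was the lowest and dKO replicate 3 the nearest to wild-type. With the Student t-test the adjusted p was 0.071 for *Cbl* and 0.055 for *Cblb*.

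In the branch to the actin cytoskeleton 1 of 4 members fell, where 10.0% of all genes did. *Vav1*, the main exchange factor for Rac in T-cells, read 10.70, 10.68 and 10.64 in wild-type and 10.48, 10.50 and 10.56 in dKO (-0.16, adjusted p = 0.030). Its call was lost without wild-type replicate 1 or 2 and without dKO replicate 1 or 2, with adjusted p up to 0.10. *Vav3* gave a like estimate of -0.16 (adjusted p = 0.061), the adaptor gene *Nck1* gave -0.018 and *Was*, which encodes the actin regulator WASP, gave 0.070 (adjusted p = 0.35).

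The Ras and diacylglycerol branch moved in both directions. *Rasgrp1*, the diacylglycerol-activated exchange factor that switches on Ras in thymocytes, read 12.52, 12.58 and 12.61 in wild-type and 12.05, 12.11 and 12.20 in dKO (-0.44, SE 0.053, adjusted p = 0.00024). *Sos2*, an exchange factor of the other family, read 8.67, 8.64 and 8.64 in wild-type and 8.95, 9.05 and 9.12 in dKO (0.39, SE 0.053, adjusted p = 0.00054). Every dKO array was below wild-type for *Rasgrp1* and above for *Sos2*. *Sos1* gave 0.030 (adjusted p = 0.81), and its sign was negative under quantile and cyclic loess normalization. *Rasa2*, a Ras GTPase-activating protein, gave -0.059 (adjusted p = 0.64).

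Diacylglycerol kinases end this branch by consuming diacylglycerol. *Dgkz* read 10.07, 10.12 and 10.11 in wild-type and 9.75, 9.85 and 9.78 in dKO (-0.31, adjusted p = 0.0011). It was the only measured member with 2 rows, and the dimmer row, near 6.87, differed by 0.00070 (adjusted p = 0.997 with all rows of the table tested). The mean of both rows gave -0.16 (adjusted p = 0.075), so the call belongs to the brighter row. *Dgka* gave -0.066 (adjusted p = 0.34).

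Protein kinase Cθ, Bcl10 and Malt1 carry the signal to NF-κB. *Bcl10* and *Malt1* went opposite ways. *Bcl10* read 9.86, 9.94 and 9.93 in wild-type and 10.15, 10.19 and 10.29 in dKO (0.30, adjusted p = 0.0026). *Malt1*, its protease partner, read 9.43, 9.29 and 9.33 in wild-type and 9.12, 9.03 and 9.17 in dKO (-0.24, adjusted p = 0.013). Neither gene's ranges overlapped. The call for *Malt1* was lost without dKO replicate 2 (adjusted p = 0.055) and with the Student t-test (adjusted p = 0.085). *Prkcq*, which encodes protein kinase Cθ, gave -0.078 (adjusted p = 0.30).

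Over all genes 10.0% fell and 13.1% rose, and among the brightest 50%, refitted alone, 19.1% and 26.7%. The calcium branch had 6 members that fell and 1 that rose among 10. Its entry point *Plcg1* read 10.52, 10.51 and 10.53 in wild-type and 10.30, 10.31 and 10.32 in dKO (-0.21, adjusted p = 0.0053). *Stim1*, the sensor of calcium in the endoplasmic reticulum, read 9.32, 9.32 and 9.33 in wild-type and 8.99, 9.12 and 9.11 in dKO (-0.25, adjusted p = 0.0055). *Orai1*, the pore that STIM1 opens, read 8.73, 8.73 and 8.75 in wild-type and 8.55, 8.55 and 8.60 in dKO (-0.17, adjusted p = 0.019). All 3 genes were lower in every dKO array, by less than 1.5-fold each. The call for *Orai1* was lost without wild-type replicate 2 or 3 and without dKO replicate 1 or 2, with adjusted p up to 0.069. *Itpkb*, a kinase that consumes inositol trisphosphate and is needed for thymocyte maturation, gave -0.060 (adjusted p = 0.53).

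Calcineurin, the calcium-activated phosphatase of NFAT, has 3 catalytic subunits, and their genes diverged. *Ppp3cc*, the γ subunit, read 8.68, 8.79 and 8.56 in wild-type and 7.12, 6.94 and 6.96 in dKO. It was 3.17-fold lower (-1.66, SE 0.070, adjusted p = 3.2e-07), the 27th largest decrease of all genes. *Ppp3ca*, the α subunit, read 8.94, 8.85 and 8.71 in wild-type and 9.59, 9.66 and 9.73 in dKO, 1.77-fold higher (0.82, SE 0.065, adjusted p = 1.6e-05). *Ppp3cb*, the β subunit, read 10.47, 10.52 and 10.46 in wild-type and 10.62, 10.50 and 10.62 in dKO (0.098, 95% confidence interval -0.014 to 0.21, adjusted p = 0.21), with overlapping ranges. Every dKO array was thus above all wild-type arrays for the α subunit and below them for the γ subunit.

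Of the NFAT factors that calcineurin activates, 2 of 3 fell, where 10.0% of all genes did. *Nfatc1* read 9.91, 9.91 and 9.93 in wild-type and 9.53, 9.68 and 9.66 in dKO (-0.29, adjusted p = 0.0028). *Nfatc3* read 11.44, 11.49 and 11.53 in wild-type and 11.07, 11.06 and 11.21 in dKO (-0.38, adjusted p = 0.00083). *Nfatc2* read 9.44, 9.44 and 9.34 in wild-type and 9.25, 9.35 and 9.44 in dKO (-0.060, adjusted p = 0.55), and its ranges overlapped.

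**Figure D3:**
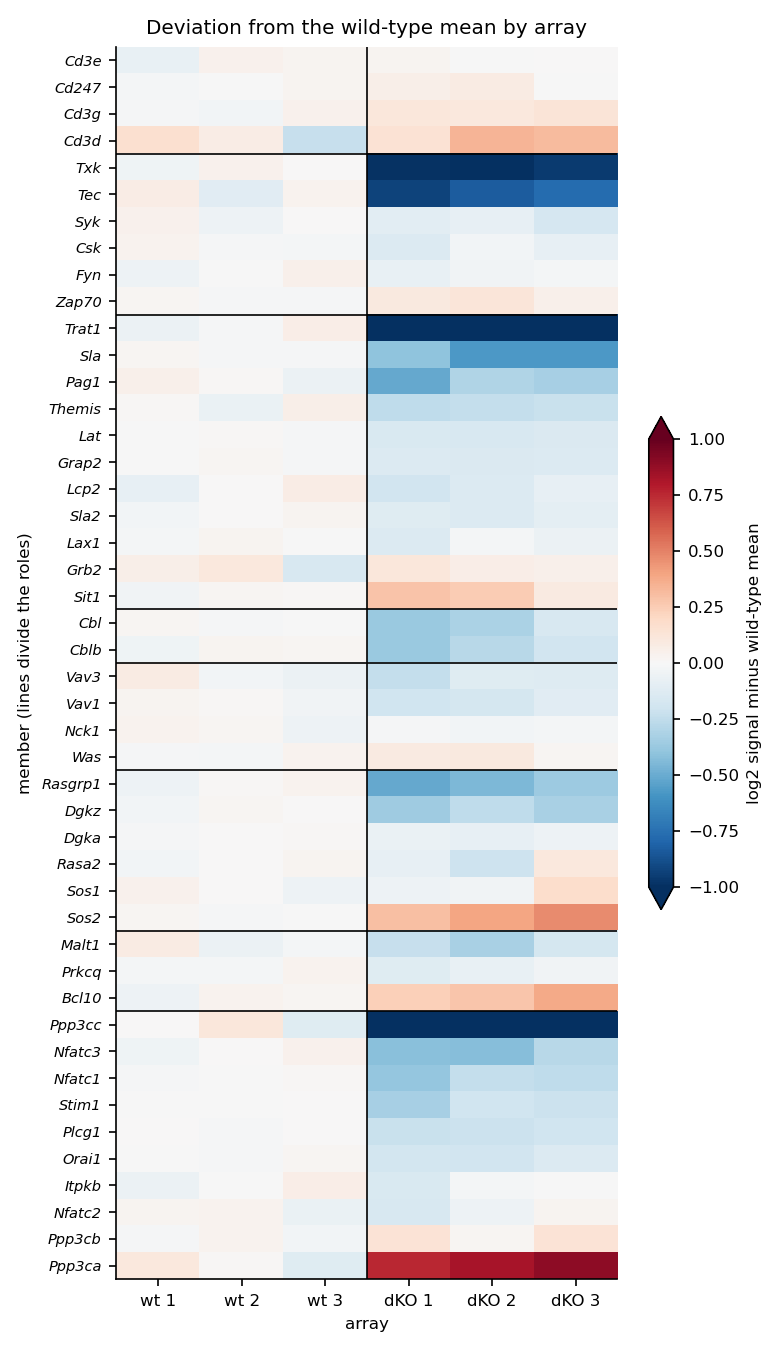
Log2 signal of each of the 46 members (rows, ordered by role and then by difference) on each of the 6 arrays (columns), minus the mean of the wild-type arrays for that member; colours end at -1 and 1. The wild-type columns stay near 0, the dKO columns are darkest blue for *Txk*, *Trat1* and *Ppp3cc* and red for *Ppp3ca*, *Sos2* and *Bcl10*.

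Related members were also set against each other within each array, as a description with no test, since the levels of different probes cannot be compared but a shift of their log2 ratio can. The ratio of *Ppp3ca* to *Ppp3cc* was 0.058 to 0.26 in wild-type and 2.47 to 2.76 in dKO, a shift of 2.49. *Ppp3ca* to *Ppp3cb* shifted by 0.73, *Sla* to *Sla2* by -0.40, *Sos1* to *Sos2* by -0.36, *Nfatc2* to *Nfatc3* by 0.32, *Dgka* to *Dgkz* by 0.24 and *Nfatc1* to *Nfatc2* by -0.23. In these 7 pairs the dKO arrays did not overlap the wild-type arrays. No share over other gene pairs was computed, while 37.7% of all single genes did not overlap. Each ratio follows from the values of its 2 members and adds no separate result. The *Dgka* to *Dgkz* shift rests on the brighter row of *Dgkz*. *Zap70* to *Syk* shifted by 0.21 without overlap, but *Syk* was not shown to be above background and neither gene passed the test. The ratios of *Cbl* to *Cblb* and *Vav1* to *Vav3* shifted by -0.0026 and 0.0010 and overlapped, as did those of *Tec* to *Txk* (0.14) and *Nfatc1* to *Nfatc3* (0.083).

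**Figure D4:**
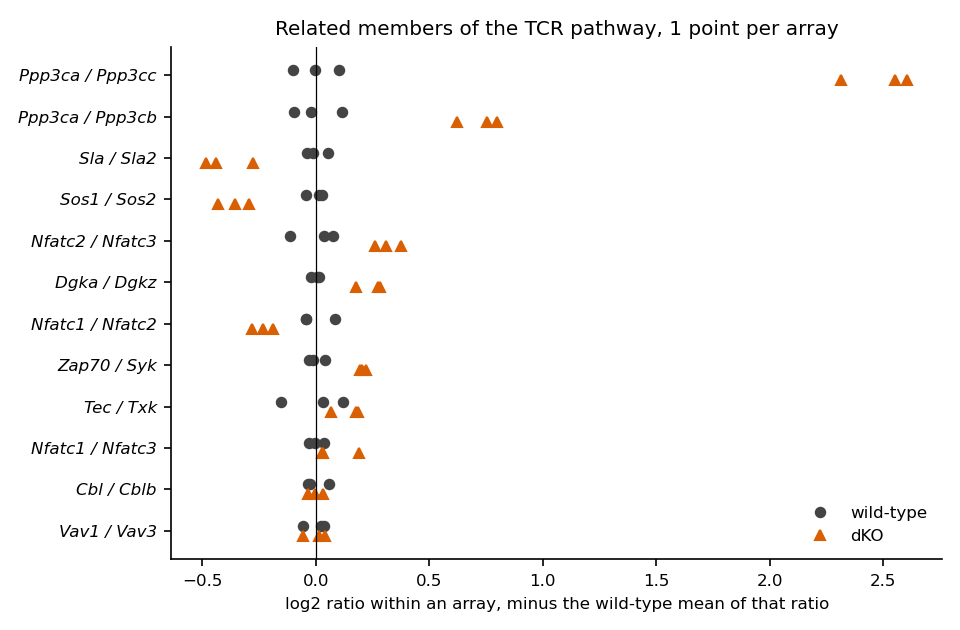
Log2 ratio of 2 related members within each array, minus the wild-type mean of that ratio (x axis), for 12 pairs (y axis), with 3 wild-type arrays as grey dots and 3 dKO arrays as orange triangles. *Ppp3ca* to *Ppp3cc* stands apart with a shift of 2.49, while *Vav1* to *Vav3* and *Cbl* to *Cblb* overlap around 0.

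The nearest measured neighbours on the chromosome, 3 on each side in RefSeq order, were read for the 6 called members that differed by at least 1.4-fold, a selection made after their values were seen. Around *Trat1* none of 6 neighbours was called in limma or had an unadjusted p under 0.05, and their differences ran from -0.012 to 0.055. These 6 genes read 3.63 to 5.49, below every array's median, where a fall may have less room to show, so no contrast to *Trat1* is drawn from them. Around *Ppp3ca* the lysosomal enzyme gene *Manba* fell (-0.52) and the other 5, of which 4 were below the array medians, did not pass. Around *Ppp3cc*, *Pdlim2* (-0.18) and *9930012K11Rik* (-0.15) fell slightly. *Txk* and *Tec* are neighbours, and *Nipal1* and *Cnga1*, the next genes beyond *Txk*, fell too, with differences of -0.42 (adjusted p = 0.0054) and -0.63 (adjusted p = 0.00080), while *Zar1* and *Slain2* beyond these 4 gave -0.13 and -0.099 without a call. *Cnga1* was dim, with means of 5.51 in wild-type and 4.89 in dKO. Among the neighbours of *Tec*, *Slc10a4* (wild-type mean 4.67) gave -0.021 without a call. *Fryl*, the third on that side, fell as well (-0.49, adjusted p = 0.00010). Thus 4 of 6 fell, beside 10.0% of all genes, but 1 of the 4 is *Txk*, itself selected as a called member. Around *Sla* 4 of 6 fell, where 10.0% of all genes did: *Tmem71* (-1.18, adjusted p = 1.0e-06), *Phf20l1* (-0.77), *Ndrg1* (-0.45) and *St3gal1* (-0.43), with wild-type means of 10.21 to 11.30. *Tg* and *Ccn4*, the nearest on either side, gave 0.0048 and -0.073 without a call. Their wild-type means of 5.36 and 5.24 were below the array medians, where a fall may have less room to show, although *Cnga1* fell from 5.51.

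**Figure D5:**
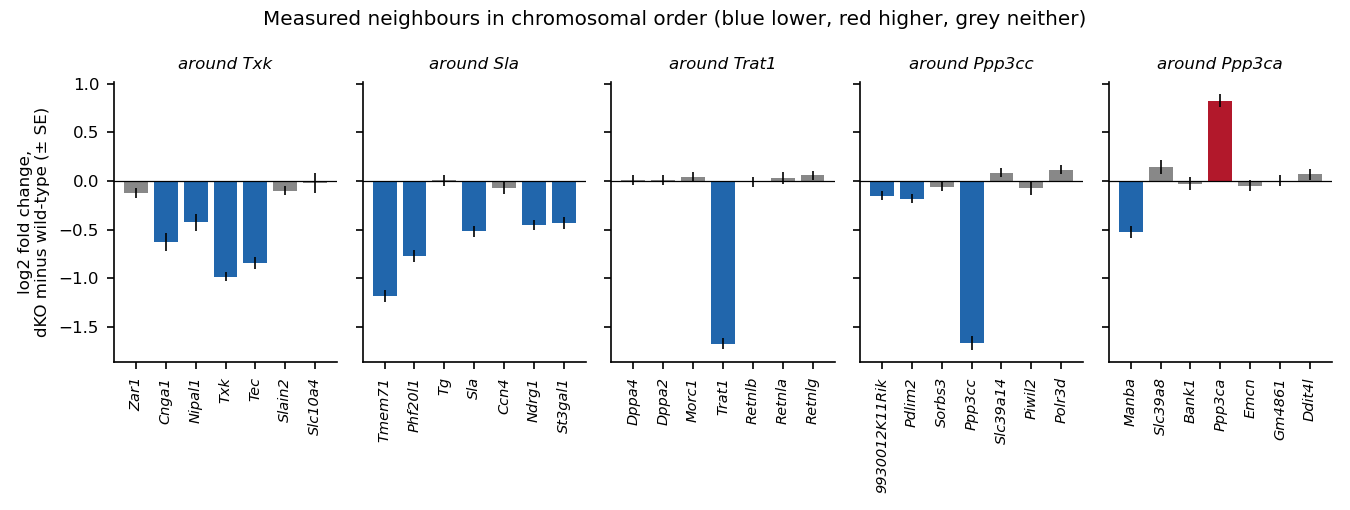
Log2 fold change (dKO minus wild-type, y axis, with its SE) of 5 members and the 3 nearest measured genes on each side in chromosomal order (x axis, not to scale of distance), in blue where a gene fell, red where it rose and grey otherwise. The 6 genes around *Trat1* are grey but also dim (3.63 to 5.49), and 4 consecutive genes from *Cnga1* to *Tec* fell.

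Beyond the members, a list of 137 further genes of the pathway was examined, of which 123 were measured. Of these 33 fell, 11 rose and 79 did not pass, so that 35.8% were called, beside 23.1% of all genes (10.0% lower, 13.1% higher). By role, falls and rises numbered 7 and 2 of 19 in the Ras and diacylglycerol branch, 7 and 1 of 22 among adaptors, 6 and 1 of 17 in the actin branch, 6 and 4 of 30 in the calcium branch, 4 and 1 of 10 in the protein kinase C and NF-κB branch, and 1 and 1 of 6 among receptor tails and coreceptors. Of 6 phosphatases 2 fell, and of 7 ubiquitin ligases 1 rose. The 6 further kinases gave no call in limma, where 2 (*Map4k1* and *Yes1*) had an unadjusted p under 0.05, and 1 call by the Student t-test. As with the members, most of these genes were bright, 106 of 123 lying above the median wild-type value. Among the brightest 50% of genes, refitted alone, 45.8% were called, 19.1% lower and 26.7% higher. In that refit 39 further pathway genes were lower and 11 higher. Their number in that set was not counted, and the nearest count is the 106 above the median wild-type value. The 35.8% comes from the fit over all genes and cannot be set against the 45.8%. Beside 23.1% it is not read as a result about the pathway, since the genes were mostly bright and this list too was chosen with earlier results known. The 5 lower genes with the smallest p-values began with *Ubash3b*, which encodes Sts-1, a phosphatase that opposes Zap70. It read 9.02, 9.13 and 9.08 in wild-type and 6.64, 6.89 and 6.997 in dKO (-2.23, adjusted p = 1.3e-07), and the 3 dKO values lay far below. *Rasgrp2*, an exchange factor for Rap1, gave -0.998 (adjusted p = 9.9e-07), and *Rasa3*, a GTPase-activating protein for Ras and Rap1, gave -0.94 (adjusted p = 6.1e-07). *Ikbkb*, a kinase of the NF-κB inhibitor, gave -0.67 (adjusted p = 3.5e-05), and *Orai2*, a partner pore of *Orai1*, gave -0.46 (adjusted p = 0.00014).

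The 5 higher genes with the smallest p-values were led by *Nedd4*, a ubiquitin ligase, which read 8.22, 8.19 and 8.22 in wild-type and 9.21, 9.35 and 9.32 in dKO (1.08, adjusted p = 5.7e-07). *Rhoh*, a GTPase that helps Zap70 reach the receptor, gave 0.57 (adjusted p = 3.6e-05). *Nf1*, which inactivates Ras, gave 0.78 (adjusted p = 9.3e-05), and *Spred1*, which recruits neurofibromin to the membrane, gave 0.41 (adjusted p = 0.0012). *Calm2*, 1 of the calmodulin genes, gave 0.28 (adjusted p = 0.0025).

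Markers of other cells were read beside these values, and their part in the results was not tested. Of 8 B-cell markers measured 1 was called, *Cd79b* (-0.63), and the log2 of their summed signal was 8.50 to 8.55 in wild-type and 8.28 to 8.30 in dKO; *Cd79a*, *Ms4a1* and *Pax5* lay at 4.13 to 5.63. Of 8 macrophage and monocyte markers 3 were called, *Lyz2* higher (0.81, highest in dKO replicate 1) and *Itgam* (-0.78) and *Cd68* (-0.31) lower, with sums of 8.71 to 8.78 and 8.58 to 8.83. None of 7 dendritic cell markers was called in limma or by an unadjusted p under 0.05, with sums of 8.32 to 8.55 in wild-type and 8.40 to 9.09 in dKO, and *Cd74* was brightest in dKO replicate 1. The NK-cell sum was 7.63 to 7.91 against 7.45 to 7.58, with *Nkg7* lower, and the thymic epithelial sum 8.59 to 8.69 against 8.69 to 8.77, with *Epcam* higher. The red cell sum was 6.55 to 6.69 against 6.61 to 6.67, with neither of 2 markers called. Of 7 DP thymocyte markers *Dntt* (1.52) and *Cd8b1* (0.54) were higher and *Rag1* lower (-0.55). *Cd8a* (-0.17), *Rag2* (0.13), *Ptcra* (0.066) and *Cd24a* (0.12) did not pass the test. The sum was 10.59 to 10.72 in wild-type and 11.12 to 11.29 in dKO. It weighs the brightest markers most, in dKO *Cd8b1* and *Dntt*, and does not speak for the markers as a set. Without dKO replicate 1, the array in which *Lyz2* and *Cd74* were highest, 16 members were lower and 3 higher. Over all genes 19% were then called, against 23.1% with all 6 arrays. Leaving out any other array gave 15 to 18 members lower and 3 or 4 higher. With 1 array fewer, fewer genes were called whichever array was left out. These counts therefore cannot show what dKO replicate 1 contributes to the member values, which was not tested.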

How the data were processed

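Total RNA from 3 wild-type and 3 dKO samples was hybridised to Affymetrix mouse ST arrays (Gene 1.0 ST in the study's methods, Exon 1.0 ST in the series' design text). The deposited values are log2 signals that the authors computed by RMA in Partek (versions not given in the sources used here); RMA makes array distributions alike, so differences are relative to the other genes, and scanner files and background flags were not used. Of 25254 rows, 21496 had a single gene symbol in the platform annotation, 1565 several and 2193 none, which left 19752 genes, each by its brightest row. No value was filtered out and no pseudocount added. Genotypes were compared with limma 3.58.1 in R 4.3.3 (genotype only, empirical Bayes without trend), adjusted over all 19752 genes, and the code was tested on simulated data. Same-numbered arrays of the 2 genotypes deviated together at r = 0.099, 0.024 and 0.070. No pairing was used in the main fit, and a replicate block was run as an alternative.

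The members and gene lists were chosen with earlier results of these data known. Every measured member is named, with values by array for those past the threshold of 0.05, the CD3 chains and *Zap70*. Of the further pathway genes, the 5 with the smallest p in each direction are named. Promoters came from RefSeq (GRCm38.p6), and figures were drawn with matplotlib 3.10.9. Alternatives were repeated quantile normalization, cyclic loess, the brightest 75% or 50% of genes, the mean of a gene's rows, all rows, a variance trend with robust fitting, an unmoderated Student t-test per gene (not the study's test for arrays), a replicate block and leaving out each array. The number of arrays limits the precision of every value.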

Additional observations from a re-analysis of the deposited data

How the results depend on the processing

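Over the alternatives, 15 to 23 members were lower and 3 to 5 higher. Of the 24 called members, 15 kept their call in each of the alternatives (*Tec*, *Txk*, *Pag1*, *Trat1*, *Themis*, *Sla*, *Sos2*, *Rasgrp1*, *Bcl10*, *Plcg1*, *Stim1*, *Ppp3ca*, *Ppp3cc*, *Nfatc1* and *Nfatc3*). Members without a call that gained one under at least 1 alternative were *Cd3d*, *Cd3g*, *Lcp2*, *Sla2*, *Vav3*, *Dgka* and *Prkcq*. With the replicate block 17 members were lower and 4 higher, *Lat*, *Grap2* and *Vav1* losing their calls, and over all genes 1970 were lower and 2574 higher; 5 of 6 arrays had their best match in the other genotype at their own number, a hint from the data only. The unmoderated Student t-test called 7 of the other pathway genes higher, against 11, and over all genes 1173 lower and 1392 higher, against 1976 and 2587. Cyclic loess turned the split over all genes to 2376 lower and 2153 higher. No member past the threshold changed sign. The members whose sign turned had none of these values called: *Cd3e* was -0.021 with quantile normalization, -0.032 with cyclic loess and -0.029 to 0.030 with an array left out, *Sos1* was -0.0100, -0.014 and -0.043 to 0.070 under the same 3 changes, *Cd247* was -0.00046 with cyclic loess, and with an array left out *Grb2* ran from -0.0037 to 0.13 and *Rasa2* from -0.14 to 0.013. The cause was not tested. *Syk* fell outside the brightest 50% of genes and has no value there.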
